A study of Mus musculus with 69 samples.

Results

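Primary microglia cultured from female Tlr7-null mouse pups were given either a myelin preparation or DMSO, and the transcripts of both sets were compared gene by gene. The members are the 3 libraries labelled F_KO with myelin and the 3 labelled F_KO with DMSO, chosen by their labels, which makes 6 of the 69 libraries of a series on Tlr7, sex and the loss of myelin with age and in Alzheimer's disease models. The F_KO myelin group (n = 3) and the F_KO DMSO group (n = 3) share the genotype TLR7:-/-, the sex and the age of the donor pups, postnatal day 1 to 3. DMSO is a solvent and stands as the vehicle group. For tests of whether the response differed, the matching pairs of F_WT cultures (female, wild type for Tlr7) and M_KO cultures (male, TLR7:-/-) were used, each again with 3 myelin and 3 DMSO libraries. The labels give the molecule as nuclear RNA and do not say how the null allele was made, whether libraries came from separate pups or cultures, how much myelin was given or for how long. The p-values therefore measure the spread between these libraries, which may be technical.

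Microglia are the resident macrophages of the brain and engulf myelin debris after demyelination. Myelin is rich in cholesterol, which a macrophage cannot degrade. Sterol arriving from outside lowers the activity of SREBP2, the transcription factor that drives cholesterol synthesis and uptake, while oxidised sterols and sterol intermediates activate the LXR receptors, which drive cholesterol export. TLR7 is an endosomal receptor for single-stranded RNA that signals through MYD88 to NF-kB and to IRF factors, which switch on cytokine and type I interferon genes. It is encoded on the X chromosome.

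QuantSeq 3′ libraries were counted per gene, and levels are given as CPM (counts-per-million, with library sizes scaled by TMM). Total counts were 17176984 to 18173931 in the F_KO myelin libraries and 15958969 to 20099722 in the F_KO DMSO libraries. Of 54532 genes in the table, 14468 passed a filter on low counts and were tested. Tlr7 had 42, 28 and 46 counts in the F_KO myelin libraries and 37, 42 and 34 in the F_KO DMSO libraries, where the F_WT libraries had between 2680 and 3745. Xist, the RNA of the inactive X chromosome, had 564, 534 and 538 CPM with myelin and 369, 489.7 and 398 CPM with DMSO, and the Y-linked gene Ddx3y had at most 10 counts in any F_KO library. These values match the labelled genotype and sex. The 14 microglia and macrophage markers summed to 6563, 6697 and 6740 CPM with myelin and to 7291, 7304 and 7518 CPM with DMSO.

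Both libraries numbered 1 stood apart in transcripts of the choroid plexus, the epithelium that makes cerebrospinal fluid. The 9 choroid plexus markers summed to 625, 55.6 and 244 CPM in the myelin libraries, against 692, 75.7 and 60.6 CPM in the DMSO libraries. Ttr, the thyroxine carrier transthyretin, made up most of each sum, with 459, 41.7 and 183 CPM in myelin libraries and 499, 54.7 and 42.5 CPM in DMSO libraries. Of the 8 choroid plexus markers tested, 0 were called by edgeR or by DESeq2, and 0 had an unadjusted p under 0.05; without DMSO library 1, 4 were called higher. Counts that leaving out both libraries numbered 1 moved by over 1.5 times are given with and without them.

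Myelin moved a large share of the transcriptome in F_KO microglia. Of the 14468 genes, 5959 were called at an adjusted p under 0.05 (41.2%), 3006 of them higher with myelin (20.8%) and 2953 lower (20.4%). The median log2 fold change of all tested genes was 0.014. The common biological coefficient of variation between replicates was 0.0507, so that small changes passed the test, and the size of a change is given beside each call. The shares of 20.8% higher and 20.4% lower are the background for every count of called list members given below. Against this background, most lists of related genes held calls in both directions, whereas sterol synthesis, cell cycle and interferon-stimulated genes moved mostly one way.

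**Figure D1:**
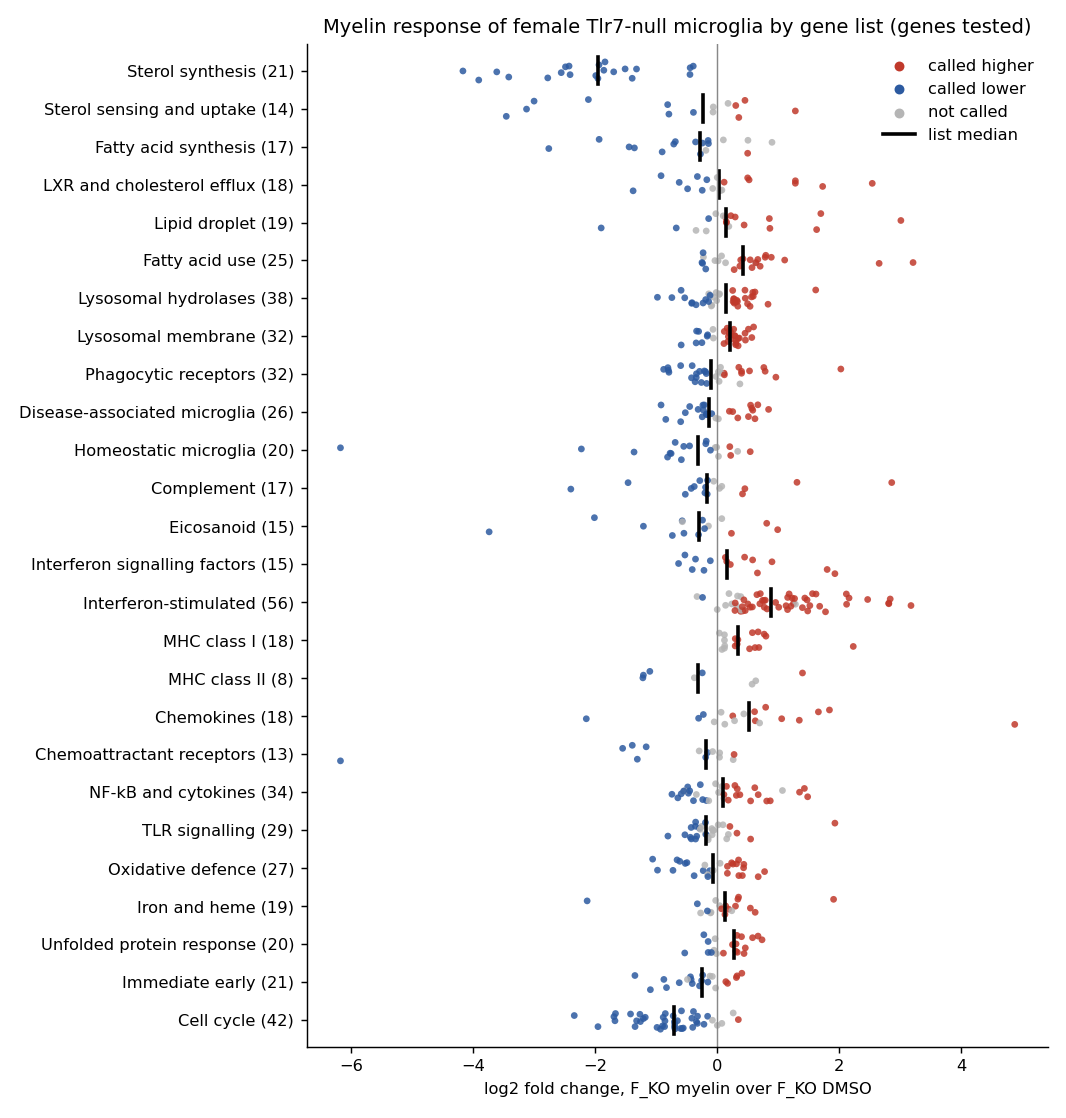
Log2 fold change of each tested gene (x axis, F_KO myelin over F_KO DMSO) in 26 gene lists (rows), with genes called higher, called lower and not called in different colours and a bar at each list's median. The sterol synthesis row lies wholly below 0, from -4.16 for Idi1 to -0.39 for Ggps1, and 45 of the 56 interferon-stimulated genes are marked as called higher.

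The sterol synthesis list, the enzymes that build cholesterol from acetyl-CoA, held 21 genes, all of which were tested. Every one of the 21 fell with myelin, with a median log2 fold change of -1.95, and the values of the 2 groups overlapped for none of them (23.4% of all genes were separate and lower). Hmgcs1, which makes HMG-CoA, had 38.3, 34.6 and 35.9 CPM in myelin libraries, against 139, 149.8 and 143 CPM in DMSO libraries (log2 fold change -1.99 ± 0.05, adjusted p = 2.29e-37). The kinases and the decarboxylase of the mevalonate segment, Mvk, Pmvk and Mvd, fell by less, with log2 fold changes of -1.32, -1.39 and -1.69. Idi1, the isopentenyl diphosphate isomerase, fell most of the list, to 2.21, 2.21 and 1.92 CPM in myelin libraries, against 35.4, 40.7 and 38.04 CPM in DMSO libraries. Fdps, which joins isoprene units into farnesyl diphosphate, had 0.523, 0.568 and 0.3005 CPM with myelin and 4.88, 5.38 and 4.83 CPM with DMSO (log2 fold change -3.41 ± 0.28, adjusted p = 2.63e-15). Ggps1, which draws farnesyl diphosphate off to protein prenylation and not to sterols, had the smallest change of the list (log2 fold change -0.39 ± 0.09, adjusted p = 2.56e-04).

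The steps after squalene fell as well. Fdft1 makes squalene and Sqle oxidises it, and their log2 fold changes were -2.77 and -2.55. Cyp51, the lanosterol demethylase, fell to 16.2, 11.8 and 14.5 CPM with myelin, against 168, 176 and 175 CPM with DMSO. Dhcr7, a reductase of the last steps, fell by far less, with 54.2, 59.3 and 58.6 CPM in myelin libraries and 74.4, 77.7 and 81.99 CPM in DMSO libraries (log2 fold change -0.44 ± 0.05, adjusted p = 8.40e-11). The groups lay apart for both genes.

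Promoter sequence from RefSeq (GRCm38.p6) was at hand for 16 of the 21 sterol synthesis genes. In the 250 bases before the start, CCAAT, the box bound by the NF-Y factor that works together with SREBP2, occurred on either strand in 15 of the 16 (93.8%), against 10133 of 27025 genes in the promoter table (37.5%), whether tested here or not. The box is not particular to sterol genes. It occurred in 79.4% of cell cycle and 66.7% of homeostatic microglia genes with a promoter, but in 32.6% of interferon-stimulated genes. The letters TCACNCCAC, a form of the sterol response element, occurred in 1 of the 16, Hmgcs1, and in 1.22% of all promoters. The promoters of Hmgcs1, Idi1 and Cyp51 are shown since these genes differ in size of change and in number of boxes. They lie at chr13:119690101-119690350 on the plus strand (Hmgcs1), at chr13:8885356-8885605 on the plus strand (Idi1) and at chr5:4104698-4104947 on the minus strand (Cyp51). Each reads 5′ to 3′ and ends at the base before the start. Capitals mark CCAAT or its reverse complement and, in Hmgcs1 alone, the TCACNCCAC match that begins 137 bases before the start. A match describes the sequence and is not a measured binding site.
Hmgcs1: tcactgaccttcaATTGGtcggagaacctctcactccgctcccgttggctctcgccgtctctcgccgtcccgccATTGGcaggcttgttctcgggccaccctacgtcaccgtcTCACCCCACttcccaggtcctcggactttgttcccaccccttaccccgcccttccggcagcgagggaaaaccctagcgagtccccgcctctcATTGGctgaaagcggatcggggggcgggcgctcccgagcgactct
Idi1: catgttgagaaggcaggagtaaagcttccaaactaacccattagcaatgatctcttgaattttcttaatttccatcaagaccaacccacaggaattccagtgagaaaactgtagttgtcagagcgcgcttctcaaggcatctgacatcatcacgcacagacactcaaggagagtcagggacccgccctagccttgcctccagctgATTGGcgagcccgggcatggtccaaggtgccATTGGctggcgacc
Cyp51: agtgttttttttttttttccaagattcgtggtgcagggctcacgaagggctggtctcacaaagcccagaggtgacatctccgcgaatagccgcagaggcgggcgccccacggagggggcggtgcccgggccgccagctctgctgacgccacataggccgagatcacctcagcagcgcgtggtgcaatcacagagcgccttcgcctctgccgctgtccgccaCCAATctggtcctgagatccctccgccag

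The genes that sense and take up sterol divided by role. Of 14 tested of 15 listed, 7 fell and 4 rose, with a median log2 fold change of -0.23. Insig1, which retains SREBP in the endoplasmic reticulum and is itself an SREBP target, had 21.7, 18.6 and 21.1 CPM in myelin libraries, against 158, 164 and 168 CPM in DMSO libraries, so that it fell by 3.00 on the log2 scale (adjusted p = 2.33e-35). The sterol carrier Stard4 had 5.06, 4.997 and 6.49 CPM with myelin and 55.1, 62.2 and 63.8 CPM with DMSO (log2 fold change -3.45 ± 0.09, adjusted p = 4.93e-38). Srebf2, which encodes SREBP2, fell too (log2 fold change -2.11 ± 0.05, adjusted p = 1.22e-32), whereas the change of Scap, its escort protein, did not pass the test (log2 fold change -0.07 ± 0.05, adjusted p = 0.32). Rises were seen in the proteins that carry sterol out of the lysosome, Npc1 (0.31) and Npc2 (0.46) and in Mylip. Mylip, a ubiquitin ligase that is an LXR target, had 106, 107 and 104 CPM in myelin libraries and 43.8, 44.8 and 41.2 CPM in DMSO libraries (log2 fold change 1.28 ± 0.05, adjusted p = 6.62e-30). Its 2 groups lay apart, as did those of Insig1.

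Fatty acid synthesis genes mostly fell. Of the 17 tested, 12 fell and 1 rose, and the median log2 fold change was -0.27. Mlxipl, which encodes the sugar-responsive factor ChREBP, had 1.86, 1.53 and 1.86 CPM with myelin and 12.03, 12.8 and 10.7 CPM with DMSO (log2 fold change -2.76 ± 0.15, adjusted p = 2.68e-22). Among enzymes the desaturase Fads2 (-1.93), the elongase Elovl6 (-1.35), fatty acid synthase Fasn (-0.90) and the citrate lyase Acly (-0.71) fell. Lpcat3, which places unsaturated fatty acids into phospholipids and is an LXR target, was the single member that rose (log2 fold change 0.50 ± 0.05, adjusted p = 2.71e-13). With the replicate numbers as a block and without myelin library 3, 2 members were called higher, and without DMSO library 1, 3.

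Known LXR targets were split, the cholesterol exporters rising and Apoe and the lipase Lpl (-0.17) falling slightly. The LXR and efflux list had 18 tested members, 7 called higher and 7 called lower, so the list as a whole had a median log2 fold change near 0 (0.03). Abca1, which loads cholesterol onto apolipoprotein A-I, had 886, 889 and 797 CPM in myelin libraries, against 136, 152 and 152 CPM in DMSO libraries (log2 fold change 2.54 ± 0.09, adjusted p = 8.57e-14). The transporter Abcg1 (1.73 ± 0.04) and the gene of LXR-alpha, Nr1h3 (1.28 ± 0.13), rose beside it, whereas Nr1h2, which encodes LXR-beta, did not pass the test (log2 fold change -0.07 ± 0.04, adjusted p = 0.184). Among the 7 that fell were the enzymes that make oxysterols, Cyp27a1 (-1.38) and Ch25h (-0.92), and the transporter Abca7 (-0.62). Apoe, the main apolipoprotein of the brain, was abundant and fell slightly, with 11575, 11568 and 11822 CPM with myelin and 13658, 13404 and 14314 CPM with DMSO (log2 fold change -0.24 ± 0.02, adjusted p = 2.33e-12).

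Lipid droplet and fatty acid oxidation genes rose more often than they fell. Of 19 droplet genes tested, 11 rose and 3 fell, and of 25 oxidation and fatty acid transport genes, 15 rose and 4 fell (median log2 fold changes of 0.15 and 0.43). Plin2, the coat protein of droplets in most cells, had 3844, 4121 and 3872 CPM in myelin libraries and 1168, 1206 and 1267 CPM in DMSO libraries (log2 fold change 1.70 ± 0.03, adjusted p = 4.25e-45). Hilpda, which inhibits triglyceride lipase on the droplet, rose by 1.63 on the log2 scale and Soat1, which esterifies cholesterol, by 0.30. Acsl3, an acyl-CoA synthetase of growing droplets that is also known as an SREBP target, went the other way (log2 fold change -1.90 ± 0.12, adjusted p = 1.09e-20). Angptl4, a secreted inhibitor of lipoprotein lipase and a PPAR target, had 56.6, 61.4 and 60.6 CPM with myelin and 8.67, 9.39 and 10.3 CPM with DMSO (log2 fold change 2.66 ± 0.08, adjusted p = 3.14e-35). The PPAR target Pdk4, which restrains pyruvate oxidation, was low and had 1.98, 1.31 and 1.56 CPM with myelin, against 0.244, 0.196 and 0.0596 CPM with DMSO (log2 fold change 3.21 ± 0.49, adjusted p = 2.19e-07). Carnitine shuttle and beta-oxidation enzymes rose by less, among them Cpt1a (0.57), Acadl (0.80) and Hadha (0.39), and the lipid carriers Fabp4 (1.11) and Fabp5 (0.67) and the scavenger receptor Cd36 (0.79) rose with them. Lipn, a member of the lysosomal lipase family, had 10.8, 10.8 and 10.9 CPM in myelin libraries and 2.01, 1.66 and 0.954 CPM in DMSO libraries, with no overlap (log2 fold change 2.80 ± 0.18, adjusted p = 7.54e-20).

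**Figure D2:**
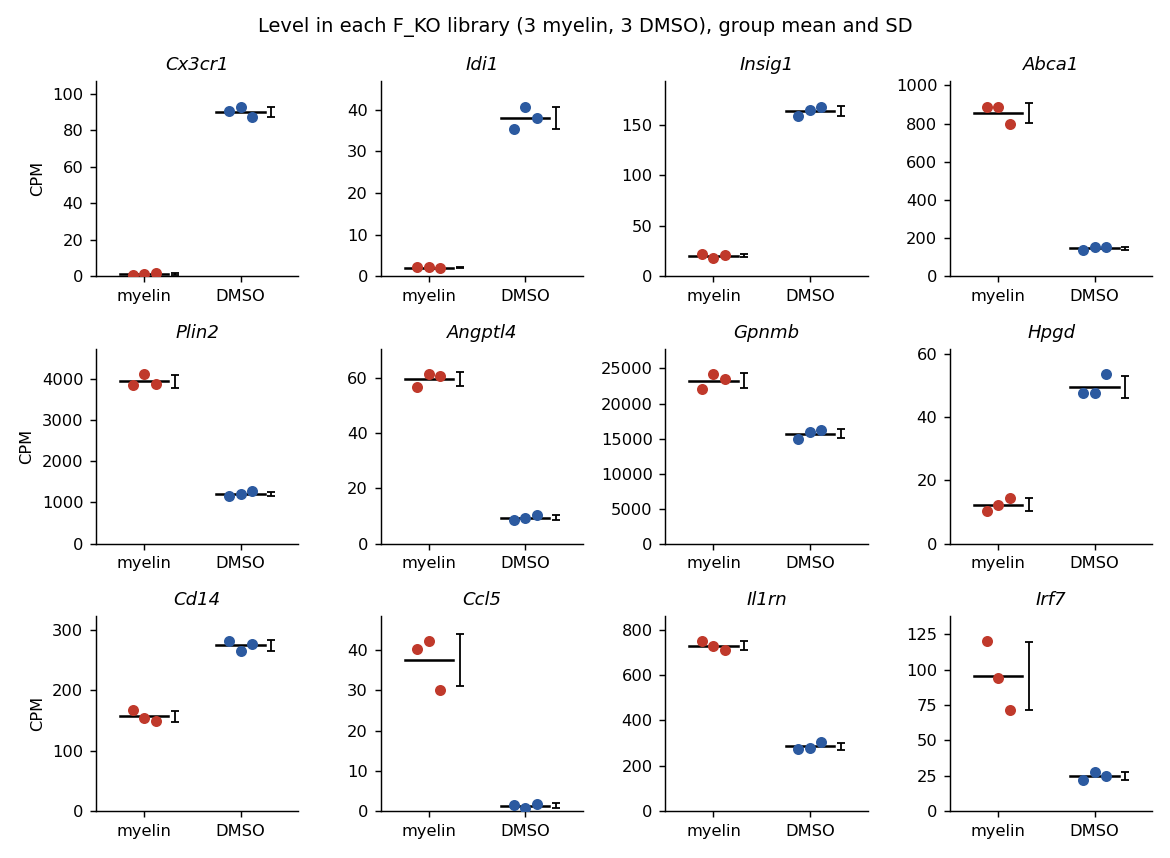
CPM of 12 genes in each of the 6 libraries (y axis, linear from 0 and scaled separately for each gene), with F_KO myelin libraries left of F_KO DMSO libraries, a line at each group's mean and a bar for its SD. In none of the 12 panels do the 2 groups overlap; Cx3cr1, Idi1, Insig1, Hpgd and Cd14 are lower with myelin and the other 7 genes higher.

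Lysosomal genes moved by small amounts and mostly upward, more evenly for the membrane than for the hydrolases. Of 38 hydrolases and their activators tested, 19 rose and 11 fell, and of 32 membrane proteins, proton pump subunits and regulators, 23 rose and 7 fell. The median log2 fold changes were 0.15 and 0.22. Ctsk, a cathepsin best known from osteoclasts, had the largest rise (log2 fold change 1.62 ± 0.09, adjusted p = 1.41e-21). Psap, the precursor of the saposins that present myelin sphingolipids to their hydrolases, had 18885, 19622 and 20025 CPM with myelin and 13524, 13631 and 14233 CPM with DMSO (log2 fold change 0.50 ± 0.02, adjusted p = 7.20e-26). Galc, which degrades the myelin lipid galactosylceramide, fell (log2 fold change -0.23 ± 0.05, adjusted p = 5.46e-05). The 15 called proton pump genes that rose lay between 0.12 (Atp6ap1) and 0.47 (Atp6v1g1), and the subunit Atp6v0a1 fell (-0.30). The transcription factors of lysosome biogenesis Tfeb (-0.34), Tfe3 (-0.16) and Mitf (-0.34) fell. Gpnmb, a glycoprotein of lysosomes and phagosomes, had 22073, 24211 and 23532 CPM in myelin libraries and 14956, 15925 and 16159 CPM in DMSO libraries (log2 fold change 0.57 ± 0.03, adjusted p = 3.63e-21).

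Genes that mark homeostatic microglia fell. Of 20 tested, 13 fell and 3 rose, and the median log2 fold change was -0.32. Cx3cr1, the fractalkine receptor, showed the largest fall in the comparison among genes averaging at least 4 CPM, to 0.989, 1.08 and 1.68 CPM in myelin libraries, against 90.3, 92.9 and 87.3 CPM in DMSO libraries (log2 fold change -6.17 ± 0.17, adjusted p = 2.11e-16). These were 17, 19 and 28 counts with myelin, against 1480, 1899 and 1464 counts with DMSO. P2ry12, the ADP receptor that directs processes to damage, had 4.19, 4.71 and 4.75 CPM with myelin and 11.3, 11.8 and 11.9 CPM with DMSO (log2 fold change -1.36 ± 0.12, adjusted p = 9.21e-14). The orphan receptor Gpr34 (-2.22) and the CSF1 receptor Csf1r (-0.77) fell too. In bulk libraries fewer cells of a type and less RNA per cell cannot be told apart.

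The genes of disease-associated microglia, a state described near amyloid plaques, did not move together. Of 26 tested, 10 rose and 14 fell, with a median log2 fold change of -0.13. The 10 that rose include the cathepsins Ctsb (0.34), Ctsl (0.62) and Ctsz (0.59), the cystatin Cst7 (0.84) and the galectin Lgals3 (0.55). Among those that fell were the receptor Axl (-0.60), the integrin Itgax (-0.52), Spp1, which encodes osteopontin (-0.31), and the lipid receptor Trem2 with its adaptor Tyrobp (-0.21 and -0.18). Clec7a, another defining gene of the state, had 2453, 2404 and 2389 CPM with myelin and 2313, 2358 and 2464 CPM with DMSO, and its change did not pass the test (log2 fold change 0.02 ± 0.03, adjusted p = 0.557).

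Phagocytic receptors and bridging molecules also changed in both directions. Of 32 tested, 10 rose and 16 fell. Olr1, the receptor for oxidised LDL, had 37.5, 31.7 and 30.6 CPM in myelin libraries and 7.75, 8.85 and 7.75 CPM in DMSO libraries (log2 fold change 2.03 ± 0.10, adjusted p = 3.46e-24). The activating IgG receptors Fcgr1 (0.96) and Fcgr4 (0.77) rose, and the inhibitory IgG receptor Fcgr2b fell (-0.80). The receptor Axl, which binds phosphatidylserine through bridging proteins, fell, as did the bridging proteins Pros1 (-0.87) and Gas6 (-0.34), while Mfge8, a bridging protein for integrins, rose (0.53). Cd14, the co-receptor for bacterial lipopolysaccharide, had 167, 155 and 149.5 CPM with myelin and 281, 264 and 277 CPM with DMSO (log2 fold change -0.81 ± 0.05, adjusted p = 4.89e-13).

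Complement genes mostly fell, with 10 of 17 called lower and 4 higher, the 4 becoming 2 without myelin library 1 or without DMSO library 3. Among all genes, 20.4% were called lower and 20.8% higher. The 3 chains of C1q, the opening component of the classical pathway, fell (C1qa -0.20, C1qb -0.16, C1qc -0.37). C4b, a later component of that pathway, was low, with 0.349, 0.1704 and 0.661 CPM in myelin libraries and 4.03, 1.61 and 0.656 CPM in DMSO libraries, and was called lower although the groups overlapped (log2 fold change -2.40 ± 0.54, adjusted p = 4.11e-04). Its log2 fold change was -1.55 without DMSO library 1 (adjusted p = 0.0211) and -2.99 without myelin library 3 (adjusted p = 2.87e-04). Cfb, a protease of the alternative pathway, had 1.57, 1.82 and 1.56 CPM in myelin libraries and 0.122, 0.4401 and 0.0596 CPM in DMSO libraries (log2 fold change 2.86 ± 0.46, adjusted p = 6.22e-07), and its log2 fold change was 4.08 without DMSO library 2 (adjusted p = 1.64e-07). C3 itself did not pass the test (log2 fold change -0.05 ± 0.08, adjusted p = 0.657).

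Interferon-stimulated genes rose in these Tlr7-null cells. Of 57 listed, 56 were tested, and 45 were called higher with myelin (20.8% of all genes were) and 1 lower, Samhd1 (-0.24). Their median log2 fold change was 0.89, and for 46 of them each myelin library lay above each DMSO library (24.2% of all genes). Zbp1, a sensor of Z-form nucleic acid, had 90.97, 67.5 and 52.1 CPM in myelin libraries and 11.5, 13.3 and 13.1 CPM in DMSO libraries (log2 fold change 2.47 ± 0.35, adjusted p = 1.53e-05). Isg15, a ubiquitin-like modifier, had 45.1, 27.5 and 19.5 CPM with myelin and 5.799, 6.75 and 8.71 CPM with DMSO (log2 fold change 2.12 ± 0.46, adjusted p = 0.0011). Rsad2, the antiviral enzyme viperin, had 100.2, 60.7 and 40.7 CPM with myelin and 6.47, 13.3 and 7.75 CPM with DMSO (log2 fold change 2.84 ± 0.47, adjusted p = 1.00e-04). For each of these genes the myelin libraries lay above the DMSO libraries, but the myelin libraries differed among themselves.

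The response was uneven between libraries. Summed over the list, the level was 5784, 5012 and 4321 CPM in the myelin libraries, against 2833, 3121 and 3073 CPM in the DMSO libraries. Of the 56 genes, 55 were highest of the myelin group in library 1 and 51 were lowest of it in library 3, while 41 were lowest of the DMSO group in library 1. The myelin library that was highest also had the most choroid plexus RNA of its group, and the DMSO library that was lowest for most genes had the most of its own. Myelin protein transcripts had the same order within the myelin group, with 197, 152 and 102 CPM for Mobp and 613, 481 and 354 CPM for Mbp in myelin libraries, where the DMSO libraries had 1.89, 2.59 and 1.91 CPM and 99.3, 98.04 and 106 CPM. Without both libraries numbered 1, 23 of the 56 genes were called higher, and the log2 fold change was 2.06 for Ifit3 and 2.23 for Rsad2. In a fit of the 6 F_KO libraries alone with the replicate numbers as a block, 31 were called higher, and the adjusted p was 0.0883 for Isg15, 0.0554 for Rsad2 and 0.0835 for Ifit3. The part of choroid plexus RNA, or of the amount of myelin transcript, in this difference was not tested.

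**Figure D3:**
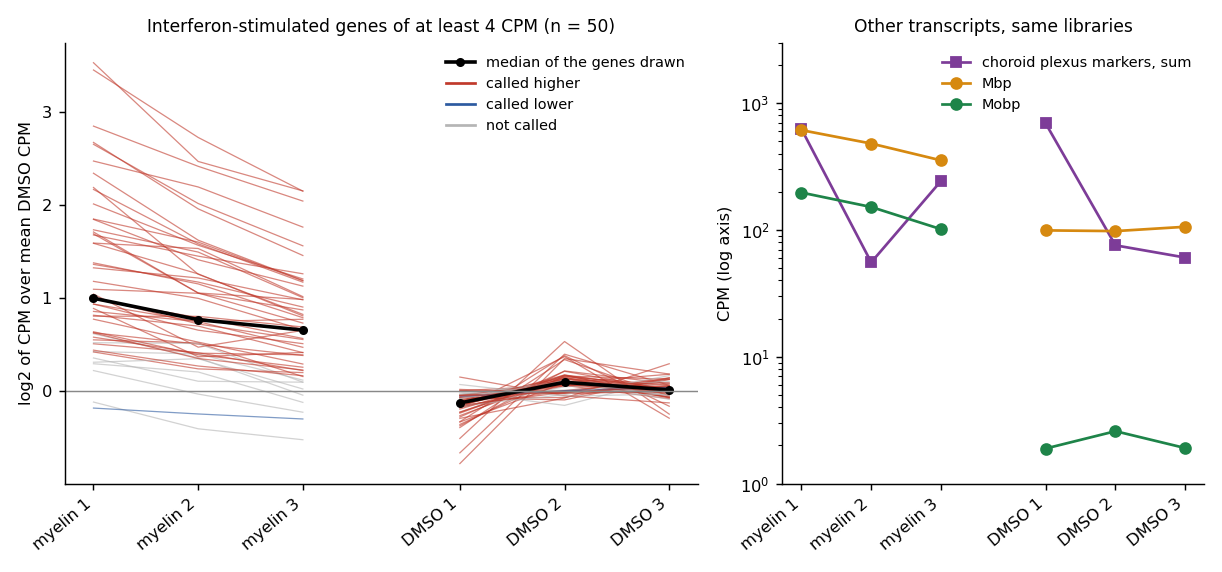
Left, log2 of CPM over the mean DMSO CPM of the same gene (y axis) for the 50 interferon-stimulated genes of at least 4 CPM, in the 3 F_KO myelin and then the 3 F_KO DMSO libraries, with a thin line for each gene coloured by its call and a thick line for their median. Right, CPM (log axis) of Mbp, Mobp and the summed choroid plexus markers in the same libraries; the choroid plexus sum is 625 CPM in myelin library 1 and 692 CPM in DMSO library 1, and lines join libraries of 1 group without implying an order.

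Factors that carry the interferon signal changed in both directions, with 9 of 15 higher and 6 lower. Irf7, the factor that amplifies type I interferon and lies downstream of TLR7, rose, to 120.0, 94.3 and 71.7 CPM in myelin libraries, against 22.1, 27.7 and 24.9 CPM in DMSO libraries (log2 fold change 1.93 ± 0.38, adjusted p = 5.19e-04). Usp18, which removes ISG15 and dampens the receptor, rose by 1.80 on the log2 scale. Irf1 (-0.63) and Irf5 (-0.53), which also act downstream of Toll-like receptors, fell.

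Of the 56 interferon-stimulated genes tested, 43 had a promoter in the RefSeq table (GRCm38.p6). A core of the interferon-stimulated response element, searched as GAAA, any 2 bases and GAAA, occurred on either strand in the 250 bases before the start of 18 of them (41.9%), against 936 of 27025 genes in all (3.46%). Ifit3, Isg15 and Rsad2 are shown because they rose strongly and carry 2, 3 and 1 matches. They lie at chr19:34583279-34583528 on the plus strand (Ifit3), at chr4:156200819-156201068 on the minus strand (Isg15) and at chr12:26456453-26456702 on the minus strand (Rsad2). Capitals mark the match, which reads TTTC, any 2 bases and TTTC where it lies on the other strand; the 3 matches of Isg15 overlap one another. The match of Rsad2 begins 120 bases before the start.
Ifit3: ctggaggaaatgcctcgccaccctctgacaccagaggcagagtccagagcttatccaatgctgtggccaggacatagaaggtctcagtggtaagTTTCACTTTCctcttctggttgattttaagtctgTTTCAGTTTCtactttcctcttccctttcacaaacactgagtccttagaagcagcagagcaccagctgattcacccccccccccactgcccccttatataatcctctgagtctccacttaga
Isg15: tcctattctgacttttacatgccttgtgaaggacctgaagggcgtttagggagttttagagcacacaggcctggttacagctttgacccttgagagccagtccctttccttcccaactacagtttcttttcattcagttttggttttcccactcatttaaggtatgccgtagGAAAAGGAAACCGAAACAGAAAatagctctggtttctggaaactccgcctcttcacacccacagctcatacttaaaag
Rsad2: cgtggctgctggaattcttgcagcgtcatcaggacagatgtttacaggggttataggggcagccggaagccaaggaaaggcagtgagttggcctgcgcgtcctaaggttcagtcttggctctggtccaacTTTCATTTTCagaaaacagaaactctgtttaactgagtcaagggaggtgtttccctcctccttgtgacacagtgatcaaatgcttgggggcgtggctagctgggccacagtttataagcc
The near-identical neighbour Ifit3b had the same log2 fold change as Ifit3 to 2 decimals (2.81), and the split of reads between the pair is uncertain.

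Antigen presentation genes of class I rose where they changed, and those of class II mostly fell. Of 18 class I genes tested, 12 rose and 0 fell by edgeR and by DESeq2. Tapbp and Tap1, which load peptide onto class I molecules, had log2 fold changes of 0.80 and 0.69, the light chain B2m 0.30, and H2-Q7 2.23. H2-M2, a non-classical class I gene, had 131, 104 and 87.6 CPM in myelin libraries and 11.2, 12.2 and 14.3 CPM in DMSO libraries (log2 fold change 3.10 ± 0.21, adjusted p = 1.21e-09). Counts of the H2 genes are uncertain because near-identical copies can share reads. Of 8 class II genes tested of 10 listed, 4 fell and 1 rose, a call that was lost without DMSO library 2. Cd74, the invariant chain, had 25.5, 22.2 and 22.8 CPM with myelin and 53.7, 53.2 and 56.9 CPM with DMSO (log2 fold change -1.22 ± 0.06, adjusted p = 6.58e-25).

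Chemokine genes rose more often than they fell, with 9 of 18 higher and 3 lower. Ccl5, which attracts T cells and monocytes, had 40.2, 42.3 and 30.2 CPM in myelin libraries, against 1.47, 0.685 and 1.79 CPM in DMSO libraries (log2 fold change 4.88 ± 0.30, adjusted p = 3.17e-10). The monocyte chemokines Ccl2 (0.80), Ccl7 (1.66) and Ccl12 (1.35) rose, and Ccl22 fell (log2 fold change -2.14 ± 0.53, adjusted p = 8.03e-04). Cxcl10, an interferon-inducible chemokine, did not pass the test (log2 fold change 0.70 ± 0.42, adjusted p = 0.188). Receptors for chemoattractants fell in 7 of 13 cases and rose in 1: beside Cx3cr1, the formyl peptide receptors Fpr1 (-1.55) and Fpr2 (-1.31) and the chemokine receptor Ccr2 (-1.39) fell, and Cxcr4 rose (0.28).

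Cytokine genes and the NF-kB pathway moved in both directions, with 15 of 34 higher and 11 lower. Il1rn, the natural antagonist of the interleukin 1 receptor, had 750.1, 728 and 710.1 CPM with myelin and 274, 279 and 305 CPM with DMSO (log2 fold change 1.35 ± 0.04, adjusted p = 1.39e-23). Il1a rose (log2 fold change 1.43 ± 0.06, adjusted p = 6.56e-27), whereas Il1b, with 3.84, 2.73 and 1.502 CPM in myelin libraries and 2.87, 2.98 and 4.41 CPM in DMSO libraries, did not pass the test (log2 fold change -0.34 ± 0.25, adjusted p = 0.299). Without myelin library 1 its log2 fold change was -0.67 (adjusted p = 0.0407). Tnf (0.62), the inhibitors Nfkbia (0.37) and Tnfaip3 (0.55) and the mitochondrial dismutase Sod2 (0.67) rose. The subunits Rela (-0.24), Relb (-0.48) and Nfkb1 (-0.39), the cytokine Il18 (-0.74) and Nlrp3 (-0.27) fell. Of 29 genes of Toll-like receptor signalling, 12 fell and 4 rose. The receptors Tlr4 (-0.35) and Tlr8 (-0.42) and the chaperone Unc93b1 (-0.35), which carries the nucleic acid receptors to endosomes, fell, and Myd88 did not pass the test (log2 fold change -0.08 ± 0.06, adjusted p = 0.275). The residual Tlr7 counts did not pass the test either (log2 fold change 0.10 ± 0.16, adjusted p = 0.724). Acod1, which makes the metabolite itaconate in activated macrophages, had 87.9, 57.6 and 46.9 CPM with myelin and 9.03, 9.98 and 10.3 CPM with DMSO (log2 fold change 2.71 ± 0.27, adjusted p = 2.68e-07).

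Lipid mediator genes fell more often than they rose, with 9 of 15 eicosanoid genes lower and 3 higher. Alox15 (log2 fold change -3.73 ± 0.33, adjusted p = 1.81e-14) and Alox5 (log2 fold change -1.21 ± 0.07, adjusted p = 6.66e-14), the lipoxygenases, fell, as did Hpgd, which inactivates prostaglandins, with 10.2, 12.3 and 14.5 CPM in myelin libraries and 47.6, 47.8 and 53.7 CPM in DMSO libraries (log2 fold change -2.01 ± 0.09, adjusted p = 5.20e-23). Ptgs1, the constitutive cyclooxygenase, fell (-0.73), whereas the prostaglandin E synthase Ptges rose (0.99). Among 20 matrix genes, 9 rose and 5 fell, beside 20.8% and 20.4% of all genes. Fibronectin Fn1 fell (log2 fold change -1.94 ± 0.09, adjusted p = 2.29e-12), and the membrane metalloproteinase Mmp14 rose (log2 fold change 0.66 ± 0.04, adjusted p = 1.62e-16).

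Proliferation genes fell almost throughout. Of 42 cell cycle genes tested, 37 fell and 1 rose, the cyclin-dependent kinase inhibitor Cdkn1a (log2 fold change 0.35 ± 0.03, adjusted p = 1.79e-13), and the median log2 fold change was -0.70. Ccnb2, a mitotic cyclin, had 0.582, 0.625 and 0.781 CPM with myelin and 3.17, 3.33 and 3.64 CPM with DMSO (log2 fold change -2.34 ± 0.27, adjusted p = 1.60e-10). Top2a, the topoisomerase of dividing cells, had 7.503, 8.46 and 8.53 CPM with myelin and 19.96, 20.1 and 18.4 CPM with DMSO (log2 fold change -1.26 ± 0.09, adjusted p = 3.87e-17). The replication helicase genes were split, with Mcm4, Mcm5, Mcm6 and Mcm7 lower (-0.55, -0.69, -0.21 and -0.86) and Mcm3 not passing the test (log2 fold change -0.08 ± 0.06, adjusted p = 0.337). For 27 of the 34 cell cycle genes with a promoter in the table (79.4%), CCAAT was present in the 250 bases before the start, against 37.5% of all genes.

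Stress and metal handling genes were mixed. Of 27 genes of oxidative defence, 12 rose and 11 fell. Gclm (-1.06) and Gclc (-0.49), which make glutathione's precursor, and Nfe2l2 (-0.61), the gene of their regulator NRF2, fell, as did the NADPH-producing enzymes G6pdx (-0.52) and Pgd (-0.66), while the superoxide dismutase Sod1 (0.78) and the peroxidase Gpx1 (0.44) rose. Of 19 iron and haem genes, 10 rose and 3 fell. Slc40a1, which encodes the iron exporter ferroportin, had 57.1, 57.4 and 65.03 CPM in myelin libraries and 254, 260.1 and 271 CPM in DMSO libraries (log2 fold change -2.13 ± 0.05, adjusted p = 4.20e-35). The ferritin heavy chain Fth1 (0.35), the transferrin receptor Tfrc (0.55) and the ferroxidase Heph (1.91) rose. Without myelin library 3, 6 of the 19 were called higher; 5 were called lower with the replicate numbers as a block, 6 with RLE size factors and 7 with no filter on low counts.

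Genes of the unfolded protein response rose in 12 of 20 cases and fell in 5. Calr (0.74), Pdia4 (0.67) and Hspa5 (0.31), chaperones of the endoplasmic reticulum, rose, and Herpud1 fell (-0.53). Targets of ATF4, the factor of amino acid and integrated stress, were split, with 6 of 19 higher and 5 lower. Of all genes, 20.8% were called higher and 20.4% lower. Psat1 of serine synthesis rose (1.03) and Phgdh, the first enzyme of the same pathway, fell (-1.01). The 5 lower became 3 without both libraries numbered 1. Immediate early genes, which report recent stimulation and handling, fell in 12 of 21 cases and rose in 5, with Egr3 at -1.35 and Egr1 at 0.41; the 5 higher became 3 without myelin library 2 or without myelin library 3.

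Transcripts of other cell types were followed as markers. The 20 myelin and oligodendrocyte markers summed to 988, 800 and 611 CPM in myelin libraries and to 280, 279 and 286 CPM in DMSO libraries. The difference was carried by Mbp, Mobp and Bcas1: of the 17 markers tested, 4 rose, Car2 being the other, and 6 fell, among them Ugt8a, which makes galactosylceramide (-1.45, and -2.19 without myelin library 1). Plekhb1, a pleckstrin homology domain protein, followed the order of Mobp and Mbp, with 51.9, 41.1 and 25.8 CPM in myelin libraries and 1.83, 1.03 and 1.43 CPM in DMSO libraries (log2 fold change 4.81 ± 0.28, adjusted p = 1.30e-10).

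Markers of oligodendrocyte precursors summed to 151, 152 and 133 CPM with myelin and 139, 157 and 148 CPM with DMSO. The sums hide falls: of 10 precursor markers tested, 8 were called lower and 1 higher, beside 20.4% and 20.8% of all genes. Their median log2 fold change was -0.73. The marker that rose, Cspg4, was the most abundant, with 1746, 1864 and 1660 counts with myelin and 1073, 1587 and 1242 with DMSO. Neuron markers summed to 16.8, 12.2 and 11.7 CPM with myelin and 13.2, 15.4 and 13.4 CPM with DMSO. Astrocyte markers summed to 60.7, 50.5 and 44.1 CPM with myelin and 80.3, 75.0 and 64.3 CPM with DMSO. Within that list Aldh1l1 fell (log2 fold change -2.33 ± 0.13, adjusted p = 9.05e-22) and S100b rose (log2 fold change 2.97 ± 0.26, adjusted p = 1.92e-13). The 8 endothelial markers summed to 55.0, 50.7 and 53.85 CPM with myelin and 42.4, 45.3 and 48.5 CPM with DMSO. At least 3 of them were at 0 in each library, and the defining gene Cldn5 was at 0 in all 6. Of the 4 tested, 1 was called higher and 0 lower. The marker called higher, Kdr, had 240, 216 and 231 counts with myelin and 119, 113 and 95 counts with DMSO. The 6 erythroid markers had 1 count in all 6 libraries together. Of 8 markers of border-associated macrophages tested, F13a1 (-2.85), Cbr2 (-1.77), Mrc1 (-0.34), Pf4 (-0.30) and Stab1 (-0.17) fell and Ms4a7 (0.92) and Siglec1 (1.11) rose.

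Further genes with large changes belonged to none of these lists. Cd34, a surface sialomucin, fell to 0.698, 0.681 and 1.62 CPM in myelin libraries, against 7.69, 6.26 and 7.21 CPM in DMSO libraries (log2 fold change -2.82 ± 0.33, adjusted p = 3.14e-07), and Fam43a fell by a like amount (log2 fold change -2.83 ± 0.22, adjusted p = 1.12e-16). Ifi206, an interferon-inducible gene, rose (log2 fold change 2.72 ± 0.58, adjusted p = 9.95e-04). Gapdh, a glycolytic enzyme often used as a reference gene, had 3985, 3252 and 3583 counts in myelin libraries and 300, 434 and 322 counts in DMSO libraries (log2 fold change 3.42 ± 1.06, adjusted p = 0.015). Its level is uncertain: in the F_WT DMSO libraries the counts were 2573, 3116 and 309, and Gapdh was the only called gene among 18, of 10072 genes averaging at least 4 CPM, that varied at least 4-fold within at least 2 of the 8 microglia groups. Gapdh also has many near-identical pseudogene copies among which reads can be split, and with the replicate numbers as a block its adjusted p was 0.0605.

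The response of F_KO cells was then set against that of F_WT cells by an interaction term. The myelin effect differed at an adjusted p under 0.05 for 133 of 14468 genes (0.919%), 65 with a more positive log2 fold change in F_KO (0.449%) and 68 with a more negative one (0.47%). Without both F_KO libraries numbered 1, 36 were more positive and 73 more negative. The 65 became 104 with the replicate numbers as a block, 25 without F_KO myelin library 3, and 39, 32 and 36 without F_KO DMSO library 1, 2 and 3. The 68 became 116 with no filter on low counts. Receptors and regulators of inflammation were among the more negative genes. Fpr1 had 11.2, 10.2 and 9.92 CPM in F_KO myelin libraries and 31.3, 29.9 and 30.6 CPM in F_KO DMSO libraries, and 11.9, 12.6 and 12.6 CPM in F_WT myelin libraries and 19.9, 21.3 and 19.7 CPM in F_WT DMSO libraries. Its log2 fold change was -1.55 in F_KO and -0.71 in F_WT, a difference of -0.83 ± 0.13 (SE, adjusted p = 3.88e-05). Gpr84, a receptor for medium-chain fatty acids, had 8.899, 8.06 and 7.87 CPM in F_KO myelin libraries and 13.9, 13.3 and 16.04 CPM in F_KO DMSO libraries, and 12.7, 11.5 and 10.1 CPM in F_WT myelin libraries and 10.6, 10.1 and 11.02 CPM in F_WT DMSO libraries (difference -0.91 ± 0.17, adjusted p = 0.00126). For both genes the F_KO libraries lay below the F_WT libraries with myelin and above them with DMSO.

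Other genes with a more negative response in F_KO were the phosphodiesterase Pde4b (-0.87), the formyl peptide receptor Fpr2 (-0.95), the NF-kB inhibitor Nfkbie (-0.76), the receptor gene Pilrb1 (-0.87), the receptors Tlr2 (-0.74) and Cd14 (-0.47), the apoptosis inhibitor Birc3 (-0.60) and the cystine transporter Slc7a11 (-0.43). For each of these genes the DMSO mean was higher in F_KO than in F_WT. The gap was small for Pilrb1 (7.96 and 7.89 CPM) and Cd14 (274 and 257 CPM). It was wider for Slc7a11 (250 and 165 CPM) and Nfkbie (17.4 and 10.8 CPM). With myelin, Slc7a11 had 225 CPM in F_KO and 200 CPM in F_WT, and Nfkbie 12.5 and 13.2 CPM. Tlr2, the receptor for bacterial lipopeptides, had a log2 fold change of -0.19 ± 0.08 in F_KO and 0.55 ± 0.08 in F_WT; without F_KO myelin library 1 the F_KO value was -0.29 and passed the test (adjusted p = 4.65e-04). Fpr2 lost its call without both F_KO libraries numbered 1 (adjusted p = 0.0553). Il1b had -0.34 in F_KO and 1.19 in F_WT (difference -1.53 ± 0.35, adjusted p = 0.017), a call that was lost without F_KO myelin library 3 (adjusted p = 0.0544) and without F_KO DMSO library 3 (adjusted p = 0.0709). Pilrb1 kept its call without F_KO myelin library 2 alone, with an adjusted p of 0.054 to 0.137 when another F_KO library was left out. Cst7 rose by 0.84 in F_KO and 1.27 in F_WT on the log2 scale (difference -0.43 ± 0.09, adjusted p = 0.00351).

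In the positive direction, Cd83, a maturation marker of antigen-presenting cells, had 26.1, 27.9 and 30.8 CPM in F_KO myelin libraries and 37.1, 44.6 and 41.6 CPM in F_KO DMSO libraries, against 17.8, 20.4 and 16.7 CPM in F_WT myelin libraries and 38.2, 44.6 and 42.6 CPM in F_WT DMSO libraries. It fell in both, by less in F_KO (difference 0.65 ± 0.11, adjusted p = 1.49e-04). The 3 C1q chains also fell by less in F_KO, with differences of 0.15 for C1qa, 0.21 for C1qb and 0.25 for C1qc. Their mean levels were nevertheless lower in F_KO than in F_WT, both with DMSO and with myelin. C1qa, for example, had 1138 CPM in F_KO and 1384 CPM in F_WT with DMSO, and 991 and 1084 CPM with myelin. C1qa lost its call with RLE size factors (adjusted p = 0.0598), with no filter on low counts (adjusted p = 0.116) and without any F_KO library but myelin library 1 (adjusted p of 0.078 to 0.158). The microglial Fc receptor-like gene Fcrls (0.48), plakoglobin Jup (0.48), adenylate kinase Ak1 (0.63), the platelet chemokine Ppbp (0.52) and coagulation factor F7 (0.46) were other genes of this direction. Ak1 lost its call without F_KO myelin library 1 (adjusted p = 0.115) or DMSO library 3 (adjusted p = 0.0882), and F7 without F_KO DMSO library 3 (adjusted p = 0.109). Ppbp lost it without F_KO myelin library 2 or 3 or DMSO library 1 or 3, with an adjusted p of 0.0967 to 0.109.

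By list, differences from F_WT were called for 5 of 32 phagocytic receptor genes, 5 of 34 cytokine and NF-kB genes, 3 of 13 chemoattractant receptors and 3 of 17 complement genes, beside the 0.919% of all genes. For the 21 sterol synthesis genes edgeR and DESeq2 called 0, and 3 had an unadjusted p under 0.05. The same held for the 56 interferon-stimulated genes, with 0 called by either tool and 3 at an unadjusted p under 0.05, although the median difference was 0.43. Library-to-library spread of these genes was wide, and a difference that misses the threshold does not show that the 2 genotypes responded alike. Zbp1, for example, had a log2 fold change of 2.47 ± 0.35 in F_KO and 1.76 ± 0.31 in F_WT (difference 0.71 ± 0.47, adjusted p = 0.701).

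**Figure D4:**
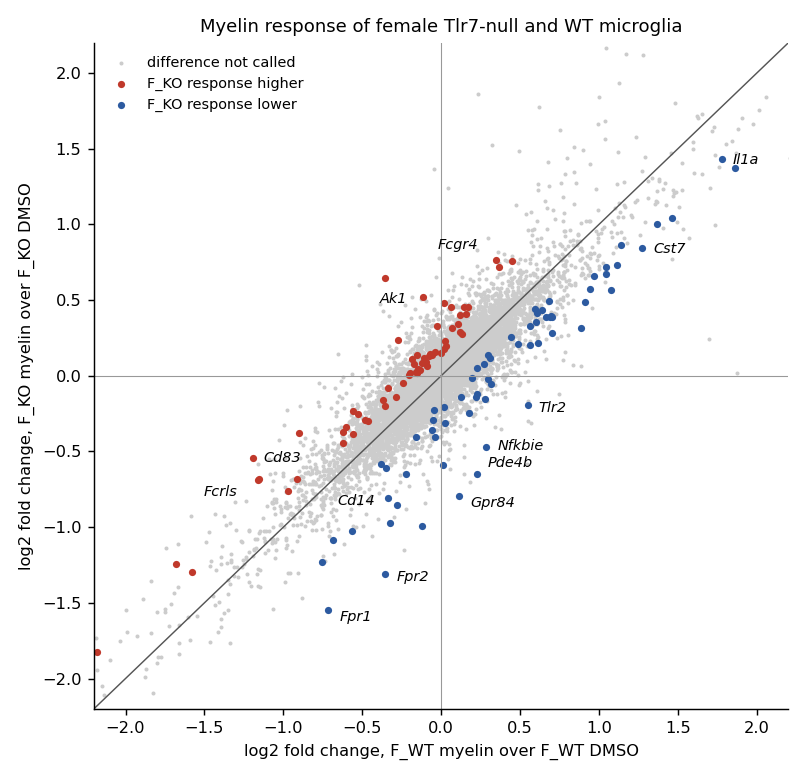
Log2 fold change with myelin in F_WT (x axis) and in F_KO (y axis) for genes averaging at least 4 CPM, with a line of equal change; the 127 genes drawn whose difference was called are coloured, and 48 genes beyond 2.2 on either axis are left out. Labelled genes below the line include Fpr2, with a difference of -0.95, and Cd83 lies above it with a difference of 0.65.

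Against male null cells few differences passed the test. The myelin effect in F_KO differed from that in M_KO for 8 genes (0.0553%), 3 more positive (0.0207%) and 5 more negative (0.0346%). With the replicate numbers as a block it was 39 genes, by DESeq2 54 and with no filter on low counts 88. Without both F_KO libraries numbered 1, 1 was more positive and 5 were more negative. Without F_KO myelin library 1, 2 and 3 it was 20, 19 and 21 genes, and without F_KO DMSO library 1 it was 0. Of the 56 interferon-stimulated genes, 45 were called higher with myelin in F_KO (20.8% of all genes were), 20 in F_WT and 9 in M_KO. These counts describe changes with myelin and not levels. The M_KO DMSO libraries were widely spread for some of these genes. Isg15 had a mean of 9.70 CPM (SD 9.39) there, and Ifit3 8.93 CPM (SD 8.95). In F_KO DMSO libraries Isg15 had 7.08 CPM (SD 1.48). The difference between F_KO and M_KO was called for 0 of the 56 genes by edgeR and by DESeq2, with 17 at an unadjusted p under 0.05 and a median difference of 0.51. Fcgr2b had a log2 fold change of -0.80 in F_KO and -1.05 in M_KO (difference 0.26 ± 0.05, adjusted p = 0.00941). Clec7a had 2453, 2404 and 2389 CPM in F_KO myelin libraries and 2313, 2358 and 2464 CPM in F_KO DMSO libraries, and 1798, 1837 and 1943 CPM in M_KO myelin libraries and 2043, 2181 and 2129 CPM in M_KO DMSO libraries (difference 0.21 ± 0.04, adjusted p = 0.00941). The methylcytosine dioxygenase Tet3 (0.32) was the other named gene of this direction. Neurl3 (-0.55), the small GTPase Rab32 (-0.28), the desaturase Scd2 (-0.25) and Nampt, which makes NAD (-0.22), had more negative responses in F_KO. All of these differences were under 0.6 on the log2 scale, and without F_KO DMSO library 1 the adjusted p of these 7 genes lay between 0.069 and 0.157. Fcgr2b and Nampt also lost the call without F_KO DMSO library 3 (adjusted p = 0.0501), Scd2 without F_KO myelin library 1 (adjusted p = 0.071) or DMSO library 2 (adjusted p = 0.0657), and Tet3 without any F_KO library but myelin library 2 (adjusted p of 0.0501 to 0.149). Neurl3 and Scd2 were also called more negative in F_KO than in F_WT, with differences of -0.48 and -0.27.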

How the data were processed

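QuantSeq 3′ mRNA libraries were made from primary mouse microglia. The authors deposited raw counts per gene, whole numbers in 1 table; GRCm38, mm10 and DESeq2 1.38.3 are named in the submitters' processing notes, whereas aligner, counter and annotation were not given in the sources used here. All 24 microglia libraries (8 groups of 3) were fitted together with edgeR 4.0.16 (TMM, filterByExpr, robust quasi-likelihood test, R 4.3.3), with no replicate block, and p-values were adjusted by Benjamini-Hochberg over the 14468 genes tested. A call means an adjusted p under 0.05; ± after a log2 value is the standard error (SE). Differences between cultures are interaction terms of the same fit. The fit was tested on simulated counts. DESeq2 1.42.0, RLE size factors, other filters, blocks and leaving out libraries were tried as alternatives.

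The deviations of same-numbered F_KO libraries from their group means correlated at 0.442, 0.214 and 0.116 over the tested genes. Over the 10072 genes of at least 4 CPM the values were 0.342, 0.213 and 0.0798. Myelin library 2 correlated more with DMSO library 3 (0.277 over the tested genes), so the correlations do not settle a pairing. The main fit treated the libraries as unpaired, and the replicate numbers served as a block in alternative fits only. The labels state no pairing.

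The members and gene lists were chosen with earlier results of these data known. Named genes are the 12 called genes in each direction with the largest change among those averaging at least 4 CPM with separate groups, up to 4 called members of each list in each direction, the 6 in each direction with the largest differences between cultures, and further list members by role. Tlr7, Xist and Ddx3y checked the labels, and Il1b and Tlr2 were singled out after their values were seen. Levels are not compared between genes. Some genes that these rules would name are not reported here.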

Additional observations from a re-analysis of the deposited data

Results flagged for a closer look

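For each of the following genes the interaction term of the main fit called a different response to myelin in F_KO and in another culture. Of the 21 differences from F_WT, 7 changed under some alternative fit, as did all 7 differences from M_KO. Against F_WT the response was more negative for Il1b (-1.53 on the log2 scale), Fpr2 (-0.95), Gpr84 (-0.91), Pde4b (-0.87), Pilrb1 (-0.87), Fpr1 (-0.83), Nfkbie (-0.76), Tlr2 (-0.74), Birc3 (-0.60), Cd14 (-0.47), Slc7a11 (-0.43) and Cst7 (-0.43). It was more positive for Cd83 (0.65), Ak1 (0.63), Ppbp (0.52), Jup (0.48), Fcrls (0.48), F7 (0.46), C1qc (0.25), C1qb (0.21) and C1qa (0.15).

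Against M_KO the response was more negative for Neurl3 (-0.55), Rab32 (-0.28), Scd2 (-0.25) and Nampt (-0.22), and more positive for Tet3 (0.32), Fcgr2b (0.26) and Clec7a (0.21). The F_KO and M_KO cultures carry the same null genotype and differ in labelled sex. By the interaction term, Neurl3 (-0.48, adjusted p = 0.00912) and Scd2 (-0.27, adjusted p = 0.00329) were also more negative in F_KO than in F_WT, cultures of the same labelled sex. The cause of these differences was not tested.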

How the results depend on the processing

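The 5959 genes called in F_KO cells stayed within 1.5 times under all 14 alternatives run, and so did the 133 genes that differed from F_WT under the 12 that apply to them. The 8 genes that differed from M_KO became 54 by DESeq2, 88 with no filter on low counts, 14 with a filter of at least 1 CPM in 6 libraries, 39 with the replicate block, and 0 to 21 when 1 F_KO library was left out. Of the genes named in the report, 172 of 181 kept direction and call in F_KO cells under each alternative that gave them an adjusted p, as did 14 of 21 for the difference from F_WT and 0 of 7 for that from M_KO. DESeq2 gave an adjusted p for 12 of the 21 and 6 of the 7. The sign turned for Clec7a with no filter (-0.0052) and without both libraries numbered 1 (-0.014), and for Tlr7, whose values lay between -0.084 (without myelin replicate 3) and 0.29 (without myelin replicate 2) when 1 library was left out; neither passed the test in any of these fits. With the replicate block across 24 libraries, Gapdh was the only named F_KO gene to change its call; in a fit of the 6 F_KO libraries the block ended the calls of Ifit3, Isg15 and Rsad2, gave one to Tlr2 and changed no other call of a named F_KO gene. Xist had already lost its call in that fit without the block (adjusted p = 0.0806). Leaving out both libraries numbered 1 was chosen after the choroid plexus transcripts were seen; it cut the interferon-stimulated genes called higher to 23. The cause of these changes was not tested. Depth limits the precision of genes with few counts, such as C4b and Cfb.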
